A study of Mus musculus with 6 samples.

Results

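Histone genes were followed in macrophages sorted from rejecting and treated mouse heart grafts. The members were chosen by their gene symbols: every probe set with exactly 1 symbol whose name has the form of an H1, H2A, H2B, H3 or H4 gene, with the probe set of the highest mean signal standing for its gene. This gave 46 genes of the 22180 genes on the array that could be named in this way. Of these, 25 were clustered histone genes, which the rule takes as the H2ac, H2bc, H3c and H4c families and H1f1 to H1f5, and the other 21 were counted as variant histone genes. All 46 symbols were found in RefSeq. The family was proposed with the differences of H2bc12 and H2bc18 in these same arrays known, so all differences between treated and untreated samples below are a description and carry no test.

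C57BL/6 recipients carried a heart from a BALB/c donor, and graft-infiltrating macrophages were sorted by flow cytometry on day 6. Recipients of 3 samples had been given mTORi-HDL nanobiologics, high-density lipoprotein particles loaded with an inhibitor of the growth kinase mTOR, at 5 mg/kg on days 0, 2 and 5. The remaining 3 samples came from recipients without treatment, in which the heart was rejected. Every sample therefore came from a C57BL/6 recipient of a fully mismatched heart, none came from recipients of empty particles, and the inhibitor and its carrier cannot be told apart. The labels do not say whether a sample is 1 animal or a pool, and no source used here names the sort markers, so the spread between the 3 arrays of a group may be partly technical.

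Histones are the proteins around which DNA is wound: H2A, H2B, H3 and H4 form the nucleosome core, and the linker histone H1 binds where DNA enters and leaves it. Clustered histone genes lie side by side in the genome, are expressed mainly in S phase when new DNA has to be packed, and give mRNAs that end in a stem-loop in place of a poly(A) tail. Most variant histone genes lie elsewhere, although H1f6, which the rule counts as a variant, lies among the clustered genes on chromosome 13. Variant genes are mostly expressed outside S phase as well or in the germ line. They give proteins such as H2A.Z and H2A.X with their own tasks in transcription and DNA repair. Macrophages of a graft can divide, and sorted fractions can also hold other dividing cells. In bulk samples fewer cells of a type and less RNA per cell cannot be told apart.

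The values are log2 RMA levels, and differences are the mean of treated arrays minus the mean of untreated arrays. The first treated array, mTORi-HDL 1, was unlike the others. The SD over its probe sets was 1.68, where the remaining 5 arrays had SDs from 2.04 to 2.09. Its correlation with them across probe sets was 0.708 to 0.741, and theirs among each other was 0.892 to 0.912. On it the genes at or above the median level of all genes, 4.18, had a median deviation of -0.32 from the untreated mean, and those below that level one of 0.56. Differences are over all 6 arrays unless said, and those of the named histone genes are given again without mTORi-HDL 1. Over all 22180 genes the median difference was 0.08, and -0.03 without that array.

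No gene was called at an adjusted p under 0.05 by limma: 0 of 22180 (0%) with all arrays and again without mTORi-HDL 1. With arrays weighted by their quality 1 gene passed, H2bc12 (limma, adjusted p = 0.02). The weight was 0.149 for mTORi-HDL 1 and 1.23 to 1.86 for the other arrays. In the unweighted fit without mTORi-HDL 1, H2bc12 had an adjusted p of 0.092 (limma). The family was proposed with the difference of H2bc12 known, so this call is no independent support. An unadjusted p under 0.05 was found for 8 of the 46 histone genes, all lower in treated samples, where 3.07% of all genes were lower and 1.57% higher at that threshold. Of those 8, 6 were clustered and 2 were variant histone genes. Without mTORi-HDL 1 the counts were 6 lower and 2 higher, against 3.51% lower and 3.47% higher among all genes. Because the contrast was used in proposing the family, these shares are printed for scale and nothing is read from them.

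Among clustered histone genes, H1f5, H2bc12, H2bc18, H4c9, H4c12, H2ac10 and H1f1 had the lowest values in treated samples relative to untreated ones. Of the 25 clustered genes, 17 were lower on average, where 41.8% of all genes were. By 1 or more on the log2 scale 10 of the 25 were lower and 0 higher, where 5.73% of all genes were lower and 1.39% higher by that much. Their median difference was -0.32, again -0.32 without mTORi-HDL 1, and -0.58 without mTORi-HDL 3. All 3 treated arrays lay below all 3 untreated arrays for 7 of the 25, where 5.53% of all genes did so. All 3 treated arrays lay above for 1 of the 25, where 5.37% of all genes did so.

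H1f5 encodes a linker histone and had the lowest difference of all 22180 genes, with and without mTORi-HDL 1. It read 3.42, 3.32 and 6.00 in treated samples 1 to 3 and 9.19, 8.0 and 8.96 in untreated samples 1 to 3. The groups did not overlap, and treated sample 3 lay apart from the other treated samples. The difference was -4.47 ± 0.74 (SE, n = 3 each), a ratio of 22.1, and -4.06 without mTORi-HDL 1.

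H2bc12, which encodes a core H2B, read 3.86, 3.73 and 3.65 in treated and 6.86, 6.54 and 6.36 in untreated samples. Its arrays were close together within each group, and mTORi-HDL 1 did not stand apart from the other treated arrays at this gene. All treated values lay below the median level of all genes, 4.18. How far background signal shaped their closeness and the ratio was not tested. The difference was -2.84 ± 0.26 (SE), a ratio of 7.17, and -2.90 without mTORi-HDL 1. H2bc18, an H2B gene of the smaller cluster on chromosome 3, read 3.64, 4.83 and 4.50 against 6.58, 6.87 and 7.22. The groups again did not overlap, with a difference of -2.57 ± 0.37 (SE) that became -2.23 without mTORi-HDL 1.

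The windows from 250 bases before to 50 bases after the RefSeq start are shown for H1f5, H2bc12 and H2bc18, the members with the most negative differences, in assembly GRCm38.p6 and read along the gene. Capitals mark the motif of the CCAAT box, the TATAAA form of the TATA box, the octamer ATTTGCAT, the element named CHR with the letters TTTGAA, and the string TTCGCG, on either strand. The windows are H1f5 at chr13:21780576-21780875, minus strand, H2bc12 at chr13:22035571-22035870, plus strand, and H2bc18 at chr3:96269450-96269749, plus strand.
H1f5: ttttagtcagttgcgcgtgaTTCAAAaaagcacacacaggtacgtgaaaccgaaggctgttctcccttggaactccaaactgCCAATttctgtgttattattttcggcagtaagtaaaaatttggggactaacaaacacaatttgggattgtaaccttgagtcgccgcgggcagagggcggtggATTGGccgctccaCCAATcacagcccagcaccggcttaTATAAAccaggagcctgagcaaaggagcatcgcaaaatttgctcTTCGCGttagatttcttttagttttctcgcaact
H2bc12: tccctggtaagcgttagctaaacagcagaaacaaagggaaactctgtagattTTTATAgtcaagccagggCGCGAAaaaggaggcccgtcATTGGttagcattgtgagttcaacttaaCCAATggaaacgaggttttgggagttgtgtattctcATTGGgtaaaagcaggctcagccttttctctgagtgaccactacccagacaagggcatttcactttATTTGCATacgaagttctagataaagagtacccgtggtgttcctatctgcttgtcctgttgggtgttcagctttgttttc
H2bc18: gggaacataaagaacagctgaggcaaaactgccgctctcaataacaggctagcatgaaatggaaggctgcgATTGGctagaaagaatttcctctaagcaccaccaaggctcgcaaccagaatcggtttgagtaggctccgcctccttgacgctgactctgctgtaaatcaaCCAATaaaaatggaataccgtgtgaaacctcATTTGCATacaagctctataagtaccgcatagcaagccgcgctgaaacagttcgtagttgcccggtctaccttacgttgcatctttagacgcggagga

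The H1f5 window held CCAAT at 3 places, with TATAAA starting 28 bases before the start. The H2bc12 and H2bc18 windows both held the octamer, which is the known binding sequence of POU factors at H2B genes. A match is a string of letters and was not tested as a site.

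Of the H2A genes, H2ac10 read 6.37, 7.04 and 7.19 in treated and 8.61, 8.12 and 9.73 in untreated samples. The groups did not overlap, and the difference of -1.95 ± 0.46 (SE) became -1.71 without mTORi-HDL 1. H2ac15 read 3.09, 7.60 and 7.62 against 6.81, 6.97 and 7.32. Only mTORi-HDL 1 was low, and the difference of -0.93 over all arrays turned to 0.58 without it, when both remaining treated arrays lay above all untreated ones. H2ac21 read 3.54, 3.02 and 7.63 against 4.34, 6.61 and 6.51, and H2ac20 read 5.40, 4.82 and 5.38 against 7.03, 4.18 and 4.88. Both overlapped between groups and each was scattered within one group, by an SD of 2.53 in treated samples for H2ac21 and of 1.49 in untreated samples for H2ac20. H2ac21 differed by -1.09, or -0.49 without mTORi-HDL 1, and its second probe set by -0.10. H2ac20 differed by -0.16, or -0.26 without that array.

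Of the H4 genes, H4c12 read 5.78, 9.19 and 9.72 in treated and 10.26, 9.74 and 10.86 in untreated samples. The groups did not overlap, but treated sample 3 and untreated sample 2 were nearly equal, and the difference of -2.06 ± 0.96 (SE) shrank to -0.84 without mTORi-HDL 1. H4c9 read 5.30, 3.82 and 6.66 against 7.89, 6.33 and 8.20, which overlapped between treated sample 3 and untreated sample 2. Its difference was -2.22 ± 0.77 (SE) and -2.24 without mTORi-HDL 1, so it did not rest on that array. The other 5 H4 genes were below the median level of all genes and differed by -0.32 to 0.43. Among them H4c1 was the only clustered gene with all treated arrays higher, at 3.04, 2.78 and 2.83 against 2.44, 2.46 and 2.47, a difference of 0.43 and of 0.35 without mTORi-HDL 1.

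The H4c12 window is shown beside those above because this family differed from the other clustered genes in its letters. It lies at chr13:21750504-21750803, minus strand.
H4c12: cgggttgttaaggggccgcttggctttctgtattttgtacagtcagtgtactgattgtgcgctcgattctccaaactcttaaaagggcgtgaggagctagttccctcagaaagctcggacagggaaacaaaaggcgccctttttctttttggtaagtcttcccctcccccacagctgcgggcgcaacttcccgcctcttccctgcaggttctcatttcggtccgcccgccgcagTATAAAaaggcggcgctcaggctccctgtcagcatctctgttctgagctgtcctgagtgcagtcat

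CCAAT was in 1 of 6 clustered H4 windows, and in 4 of 4 H1, 6 of 6 H2A and 7 of 7 H2B windows. The octamer was in 0 of 6 H4 and 0 of 4 H1 windows, 3 of 6 H2A and 5 of 7 H2B windows. The H2A windows with it were those of H2ac1, H2ac12 and H2ac20. In H2ac1 and H2ac12 it is the octamer of H2bc1 and H2bc12 read from the other strand, because those windows overlap. Only that of H2ac20 is separate from the H2B windows.

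The remaining clustered H1 and H2B genes were less far apart. H1f1, a linker histone gene, read 3.75, 4.54 and 3.51 in treated and 5.51, 5.08 and 5.82 in untreated samples, a difference of -1.54 ± 0.36 (SE) without overlap and of -1.44 without mTORi-HDL 1. H1f2, another linker histone gene, read 4.03, 4.91 and 5.02 against 4.97, 4.79 and 7.21. Its groups overlapped, untreated sample 3 alone was high, and the difference of -1.0 became -0.69 without mTORi-HDL 1. H2bc3 read 6.27, 6.37 and 6.83 against 7.17, 6.95 and 6.77, a difference of -0.47 with overlap, or -0.36 without mTORi-HDL 1, that shrank to 0.0015 with quantile normalization and turned to 0.09 with cyclic loess. H1f3 differed by 0.07, or 0.01 without mTORi-HDL 1.

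**Figure D1:**
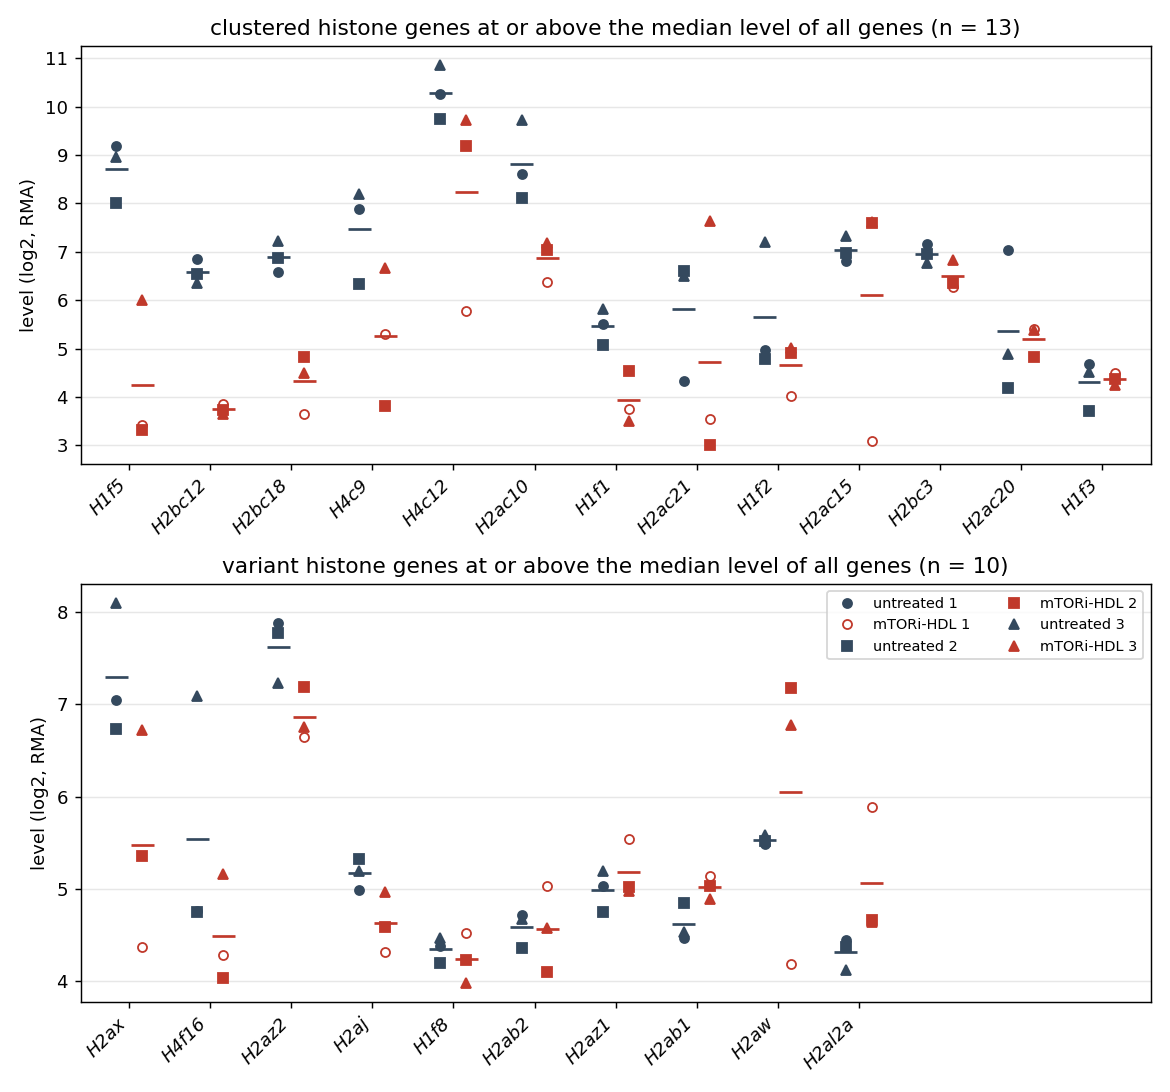
Log2 RMA level of each histone gene at or above the median level of all genes, by array, for 13 clustered (top) and 10 variant genes (bottom), ordered by difference. Dark symbols are untreated arrays, red symbols treated arrays, open circles mTORi-HDL 1, and bars group means. The treated arrays of H2bc12 sit between 3.65 and 3.86, all below its untreated arrays at 6.36 to 6.86.

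The members were also split by their signal. Of the 25 clustered genes, 13 had a mean level at or above the median of all genes. These 13 had a median difference of -1.54, or -0.84 without mTORi-HDL 1, 12 of them were lower, and 6 did not overlap. Of all 11090 genes at or above that level 58.4% were lower and 9.38% had all treated below all untreated arrays, both more than among all genes. The 12 below that level had a median difference of 0.01, and 1 of them, H2bc9, did not overlap, with 3.29, 3.23 and 3.31 against 6.36, 3.97 and 3.89, a difference of -1.47 with and without mTORi-HDL 1. H1f3 at 4.33 and H2bc9 at 4.01 were the clustered genes nearest to the limit on either side. The mean level includes the untreated arrays, so a gene that is high only there can pass, and the 13 are not a fair sample of the 25. Across genes, the Spearman correlation of level and difference was -0.73 over the 25 clustered genes and -0.51 without mTORi-HDL 1, where it was -0.40 and -0.00 over all genes. Genes share the same 6 arrays and are not independent replicates.

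**Figure D2:**
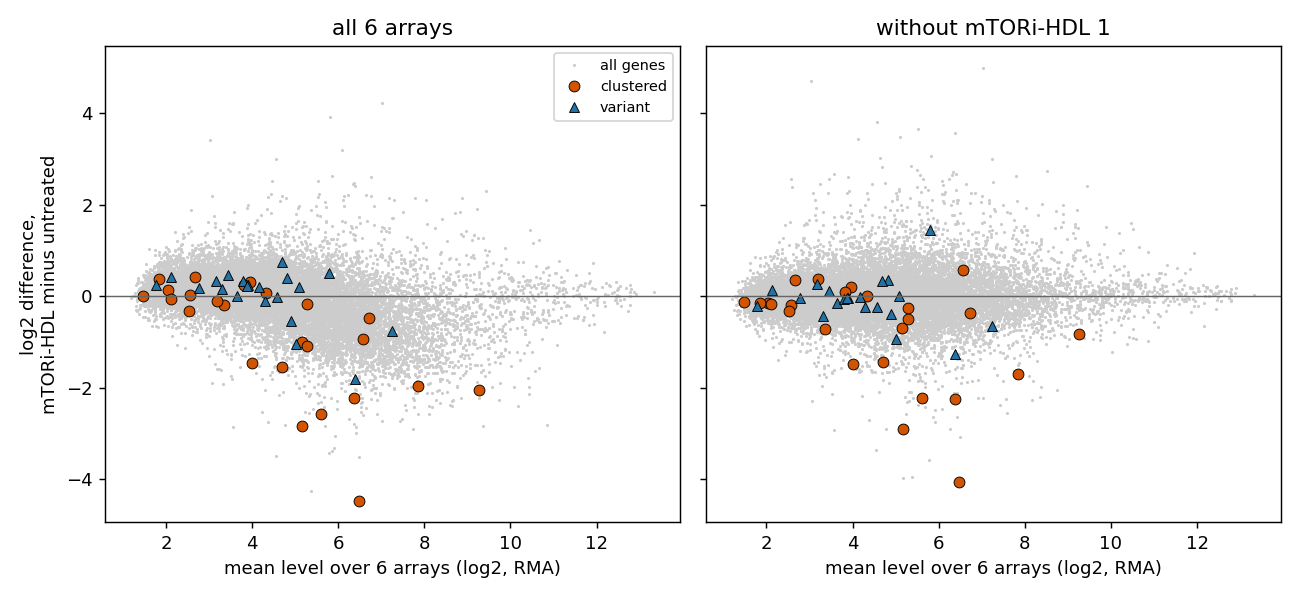
Difference of each gene against its mean level over 6 arrays, both log2, with all arrays (left) and without mTORi-HDL 1 (right). Grey points are all 22180 genes, circles clustered and triangles variant histone genes. With all arrays, H2bc9 lies at -1.47, and the other clustered genes below the median level of 4.18 lie between -0.32 and 0.43. The lowest point in both plots is H1f5 at -4.47 and -4.06.

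Among variant histone genes the differences ran both ways. Of 21, 7 were lower and 14 higher on average, with a median difference of 0.21, which turned to -0.04 without mTORi-HDL 1. The sign depended on which variants were counted: the 5 somatic variants H1f10, H2ax, H2az1, H2az2 and H2aj had a median of -0.54, or -0.39 without that array, and the other 16 one of 0.24, or -0.04. All treated arrays lay below all untreated arrays for 3, namely H2ax, H2az2 and H2aj, and above them for 2, namely H2al2a and H2ab1, where 5.53% of all genes lay below and 5.37% above. Without mTORi-HDL 1 the counts were 5 below and 3 above, where the treated arrays 2 and 3 lay below all untreated arrays for 12.5% of all genes and above for 9.75%. By the same measure 8 of the 25 clustered genes lay below and 2 above.

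H2ax encodes H2A.X, the H2A variant that is phosphorylated beside DNA breaks. It read 4.37, 5.35 and 6.72 in treated and 7.05, 6.74 and 8.10 in untreated samples. The groups did not overlap, although treated sample 3 and untreated sample 2 were nearly equal, and the difference of -1.81 ± 0.63 (SE) became -1.26 without mTORi-HDL 1. Its mRNA is known to be made in both a stem-loop and a poly(A) form.

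H2az2 and H2az1 encode the closely related forms of H2A.Z, which marks promoters. H2az2 read 6.64, 7.18 and 6.75 against 7.88, 7.77 and 7.23, without overlap, a difference of -0.77 ± 0.30 (SE) and of -0.66 without mTORi-HDL 1. It shrank to -0.30 with quantile normalization and to -0.15 with cyclic loess. H2az1 read 5.54, 5.02 and 4.97 against 5.03, 4.74 and 5.19, with overlap and a difference of 0.19, or 0.01 without mTORi-HDL 1. The windows of both genes are shown because their values differed while the proteins they encode are close relatives; capitals are as above. They lie at chr11:6444394-6444693, minus strand, and at chr3:137864237-137864536, plus strand.
H2az2: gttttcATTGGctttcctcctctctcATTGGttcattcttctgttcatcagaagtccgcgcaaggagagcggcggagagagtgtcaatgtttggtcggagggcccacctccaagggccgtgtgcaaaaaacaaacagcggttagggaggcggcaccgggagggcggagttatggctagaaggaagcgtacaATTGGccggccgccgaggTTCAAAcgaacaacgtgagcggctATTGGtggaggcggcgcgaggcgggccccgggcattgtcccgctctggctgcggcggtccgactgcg
H2az1: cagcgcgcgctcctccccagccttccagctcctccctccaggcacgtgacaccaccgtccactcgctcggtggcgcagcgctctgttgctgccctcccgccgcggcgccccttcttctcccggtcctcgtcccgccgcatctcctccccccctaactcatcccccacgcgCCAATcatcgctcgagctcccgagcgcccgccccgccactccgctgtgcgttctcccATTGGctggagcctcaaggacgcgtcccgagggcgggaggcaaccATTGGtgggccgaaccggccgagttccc

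Both H2A.Z windows held CCAAT on at least one strand, neither held TATAAA or the octamer, and TTTGAA was in the H2az2 window alone.

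H2aj, the gene of the variant H2A.J, read 4.32, 4.59 and 4.97 against 4.99, 5.32 and 5.20. The difference of -0.54 became -0.39 without mTORi-HDL 1, and the highest treated array nearly met the lowest untreated one. H4f16, an H4 gene outside the main clusters, read 4.29, 4.03 and 5.16 against 4.76, 4.75 and 7.09, with overlap and with untreated sample 3 alone high. Its difference was -1.04, or -0.94 without mTORi-HDL 1, and a second probe set of it differed by 0.11.

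H2aw, an H2A gene of a small histone locus on chromosome 11, differed in the other direction from most clustered genes. It read 4.18, 7.17 and 6.78 in treated and 5.49, 5.52 and 5.58 in untreated samples. Treated samples 2 and 3 were above all untreated samples and mTORi-HDL 1 was below them. With all arrays H2aw differed by 0.52, and leaving out mTORi-HDL 1 raised this to 1.45, the highest of the 46 genes in that setting. Leaving out mTORi-HDL 2 instead gave -0.05. The name rule counts H2aw and H4f16 as variants although both encode core histones of the replication-dependent kind, and with both counted as clustered the difference between the class medians was again -0.53.

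The germ line H2A genes H2al2a and H2ab1 were higher in all treated arrays. H2al2a read 5.89, 4.66 and 4.64 against 4.45, 4.37 and 4.12, and its difference of 0.75 became 0.34 without mTORi-HDL 1. H2ab1 read 5.14, 5.04 and 4.89 against 4.46, 4.85 and 4.54, a difference of 0.41 and of 0.35 without that array, while its second probe set differed by 0.12. H1f8, the linker histone of the oocyte, H2ab2, H2bfm and the somatic linker histone gene H1f10 overlapped between groups and differed by -0.10, -0.01, 0.46 and 0.25, or by -0.24, -0.25, 0.10 and -0.04 without mTORi-HDL 1. The 11 variant genes below the median level of all genes differed by -0.00 to 0.46 over all arrays and by -0.43 to 0.26 without mTORi-HDL 1, and dim genes as a whole read higher on that array. H1f8 at 4.30 and H2ap at 4.17 were the variant genes nearest to the limit on either side.

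**Figure D3:**
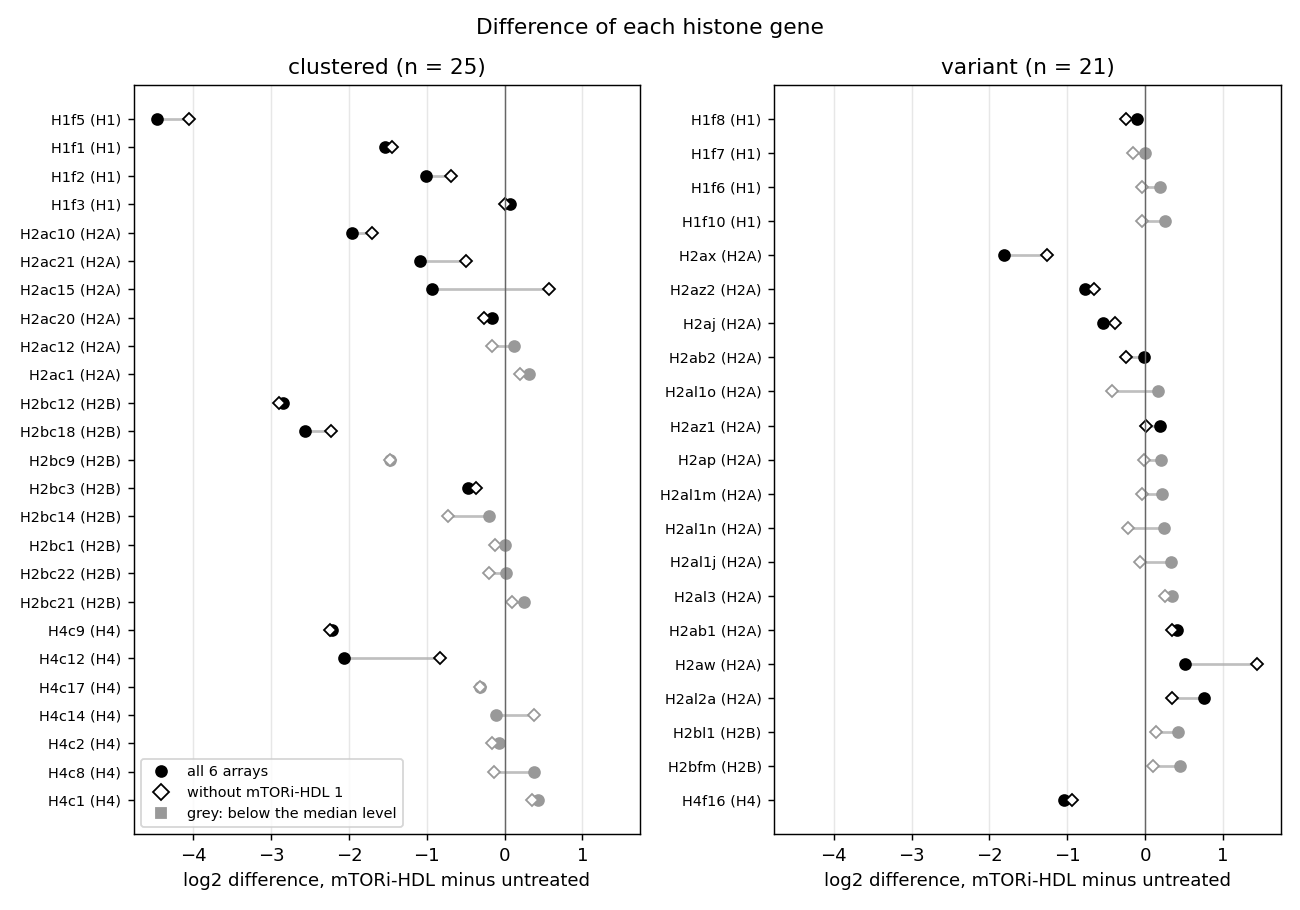
Log2 difference, treated minus untreated, of each of the 25 clustered (left) and 21 variant histone genes (right), with all arrays (filled circles) and without mTORi-HDL 1 (open diamonds). Black symbols are genes at or above the median level of all genes and grey ones are below it. H2ac15 moves from -0.93 to 0.58 between the settings, and H2bc12 from -2.84 to -2.90.

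Set against each other, the median difference of the clustered genes minus that of the variant genes was -0.53, or -0.28 without mTORi-HDL 1 and -0.89 without mTORi-HDL 3. The 5 somatic variants alone, with a median of -0.54, lay below the clustered median of -0.32, but these sets are unlike. Genes were left out on the variant side alone, and of the 5 only H1f10 was below the median level of all genes. The clustered median was -0.47 without H2ac1 and H2bc1, and -1.54 for the 13 clustered genes at or above that level. Per array, the clustered minus the variant median, each taken relative to the untreated mean of its genes, was -1.25, -0.45 and -0.03 in treated samples 1 to 3 and 0.08, 0.06 and 0.13 in the untreated ones. The 3 treated values were lower, and treated sample 3 was close to the untreated samples. For the 23 genes at or above the median level it was -1.94, -0.82 and -0.53 in treated and 0.04, -0.46 and 0.26 in untreated samples. Treated sample 3 and untreated sample 2 then differed little. These 23 genes passed by a mean level that includes the untreated arrays, so they are not a fair sample of the members.

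Neighbouring clustered genes had unequal differences. H2ac12 and H2bc12 start back to back on chromosome 13 and their windows share 277 bases on opposite strands, so the sequence printed for H2bc12 contains most of the H2ac12 window. H2ac12 differed by 0.13, or -0.16 without mTORi-HDL 1, where H2bc12 differed by -2.84, but H2ac12 had a level of 2.04, among the dimmest 3.54% of genes. H4c12 and its neighbour H2ac15 differed by -2.06 and -0.93, and by -0.84 and 0.58 without mTORi-HDL 1. H2bc12 and its neighbour H4c9 differed by -2.84 and -2.22. On chromosome 3 the neighbours H2ac21 and H2ac20 differed by -1.09 and -0.16. The 20 clustered genes on chromosome 13 had a median difference of -0.39 and the 5 on chromosome 3 one of -0.16, or -0.34 and -0.26 without mTORi-HDL 1.

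Windows were available for 43 of the 46 genes. CCAAT was in 18 of 23 clustered (78.3%) and 11 of 20 variant windows (55%), and in 41.1% of all 27025 genes with a window. TATAAA was in 16 of 23 clustered (69.6%) and 2 of 20 variant windows (10%), against 15.7% of all genes. The octamer was in 8 of 23 clustered windows (34.8%) and in 1 of 20 variant windows, that of H2aw, against 1.97% of all genes. TTCGCG was in 8 of 23 clustered and 0 of 20 variant windows, against 4.67% of all genes, and TTTGAA was in 39.1%, 20% and 20.2% in that order. Within the window of a member, 0 matches of different motifs shared bases. Between members, the H2ac12 and H2bc12 windows share 277 bases and the H2ac1 and H2bc1 windows share 220. Matches in these shared bases, among them the octamer of each pair, are counted for both genes.

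Motif shares were also counted within the clustered genes by their values. CCAAT was in 85.7% of the 7 clustered genes whose groups did not overlap downwards and in 75% of the other 16 with a window. TATAAA was in 57.1% and 75%, and the octamer in 28.6% and 37.5%. Matches in the bases that the H2bc12 and H2ac12 windows share count on both sides. Groups this small allow no more than these counts.

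Most clustered histone genes could not be read one by one, since their sequences are near copies of each other. Of the histone symbols, 54 were found only on probe sets with several symbols, and 37 of these were clustered genes, 12 of them H3 genes, so that no H3 gene is among the 46 members. Signal of a single-symbol probe set may also hold RNA of near copies. The 59 shared histone probe sets held 54 distinct rows of values, and over all 41345 probe sets 0% passed an adjusted p of 0.05 (limma), 4.45% had all treated arrays below all untreated arrays and 5.74% had them above.

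Of 7 shared probe sets of clustered H2B genes 6 were lower and 3 did not overlap. One with 4 H2B symbols read 7.81, 10.54 and 10.03 in treated and 12.08, 11.27 and 11.83 in untreated samples. All treated arrays were lower, with a difference of -2.27, and of -1.44 without mTORi-HDL 1. One with 3 H2B symbols ran the other way, at 9.80, 8.82 and 7.88 against 6.74, 9.21 and 4.08, with overlap, a difference of 2.16 and of 1.67 without mTORi-HDL 1. Of 9 shared probe sets of clustered H2A genes 8 were lower, 2 of them without overlap, and the differences ran from -3.12 to 0.37.

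Of 12 shared probe sets of clustered H3 genes, which encode the H3 made in S phase, 7 were lower, 3 without overlap, and 1 was higher without overlap. The 3 of them at or above the median level differed by -1.11, -1.53 and -1.38, or by -1.10, -0.39 and -1.22 without mTORi-HDL 1. The second of these overlapped between groups and the other two did not. One of these, with 8 H3 symbols, read 5.97, 5.93 and 6.06 against 6.87, 6.80 and 7.63, and mTORi-HDL 1 was not apart there. The 7 shared probe sets of the replacement H3 variant, which is laid down outside S phase, differed by -0.19 to 0.56, and 2 were higher in all treated arrays. Clustered H4 genes had 5 shared probe sets, which differed by -1.30 to 1.18 and all overlapped, with a median of 0.37 and of 0.32 without mTORi-HDL 1. The 11 shared probe sets of germ line and other H2A variants differed by -0.22 to 0.45. A probe set shared by an H2B gene outside the main clusters and its pseudogene read 3.18, 4.50 and 4.66 against 6.79, 6.78 and 9.42, without overlap, a difference of -3.55 and of -3.09 without mTORi-HDL 1.

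Variant histones outside the name rule were read as well. Cenpa, the H3 variant of the centromere, read 3.98, 5.95 and 5.50 in treated and 5.90, 6.84 and 6.48 in untreated samples, with overlap and a difference of -1.26 that became -0.68 without mTORi-HDL 1. Macroh2a1 and Macroh2a2, H2A variants with an extra macro domain, differed by -0.58 and 0.38, and by 0.12 and 0.16 without that array.

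Genes that make and process clustered histone mRNAs were read beside the histone genes. Of 23 measured genes of histone transcription and 3′ end processing, 17 were lower, with a median difference of -0.41 that became -0.07 without mTORi-HDL 1, and 4 did not overlap downwards. Among all genes 41.8% were lower and 5.53% had all treated arrays below all untreated ones. At or above the median level these shares were 58.4% and 9.38%. Slbp, which binds the stem-loop of these mRNAs, read 4.12, 8.03 and 6.86 against 8.23, 7.55 and 8.28. It overlapped between groups, and its difference of -1.68 became -0.57 without mTORi-HDL 1. Npat, the activator of clustered histone genes, differed by 0.01, and Casp8ap2, its partner, by 0.13, or by 0.33 and 0.84 without that array. Cdk2, the kinase that acts on Npat, read 4.44, 3.51 and 5.44 against 6.66, 6.59 and 6.64, without overlap, a difference of -2.16 and of -2.15 without mTORi-HDL 1. Ccna2, a cyclin of Cdk2, differed by -2.42 and Ncbp1, a cap-binding protein, by -1.42, both without overlap, and by -1.90 and -0.61 without mTORi-HDL 1. Cstf2, a cleavage factor, differed by -0.58 with overlap, or -0.53 without that array.

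Histone chaperones carry newly made histones to DNA. Of 26 measured chaperone and deposition genes, 22 were lower and 6 did not overlap downwards, with a median difference of -0.77 that became -0.14 without mTORi-HDL 1. The shares over all genes were 41.8% and 5.53%, or 58.4% and 9.38% at or above the median level. Asf1b, an H3 and H4 chaperone of dividing cells, read 5.31, 4.21 and 5.60 in treated and 6.51, 6.63 and 7.17 in untreated samples, a difference of -1.73 and of -1.87 without mTORi-HDL 1. Chaf1a, a subunit of the assembly factor at the replication fork, differed by -1.51, Mcm2, a helicase subunit that holds old histones, by -1.08, and Anp32e, which removes H2A.Z, by -1.0, all without overlap. Without mTORi-HDL 1 these differences were -1.39, -0.75 and -0.79.

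Genes of the cell cycle were lower in the same arrays. For scale, 41.8% of all genes were lower and 5.53% had all treated arrays below all untreated ones. At or above the median level these shares were 58.4% and 9.38%. Of 35 S phase genes 33 were lower and 19 did not overlap, with a median difference of -1.15, or -0.74 without mTORi-HDL 1. All 31 genes of G2 and M phase were lower, and 25 did not overlap, with a median difference of -1.58, or -1.56 without that array. Mki67, a marker of cycling cells, read 4.47, 7.18 and 6.79 against 8.81, 8.45 and 9.22, and Pcna, the sliding clamp of replication, read 8.06, 10.62 and 10.38 against 10.997, 10.67 and 11.13. Neither overlapped between groups. Of the S phase genes with the smallest p, Cdc45, Dscc1 and Clspn, all of the replication fork, differed by -1.74, -1.65 and -1.37. Of the G2 and M phase genes, Kif11, Ube2c, Knl1 and Bub1b differed by -3.07, -2.24, -2.19 and -2.20. These lists were chosen with such differences in these arrays known, and their part in the histone values was not tested.

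Markers of cell types also differed between the groups. Again, 41.8% of all genes were lower and 5.53% had all treated arrays below all untreated ones, or 58.4% and 9.38% at or above the median level. All 15 measured T cell markers were lower and 11 did not overlap, with a median difference of -1.49, or -0.97 without mTORi-HDL 1. Their mean level ran from 6.65 to 8.09 in treated and from 8.89 to 9.30 in untreated samples, so T cell transcripts were read in samples labelled as macrophages. Cd3g, which belongs to the antigen receptor of T cells, read 8.63, 9.57 and 9.57 against 10.66, 10.96 and 10.74. Of 18 macrophage markers 15 were higher, with a median difference of 0.72, or 1.11 without mTORi-HDL 1, and their mean level ran from 6.82 to 8.43 in treated and from 6.78 to 7.18 in untreated samples. Fcgr1, an Fc receptor of macrophages, read 8.13, 8.02 and 9.12 against 6.51, 7.23 and 6.01. The T cell list differed in the direction of the clustered histone genes and the macrophage list in the other, and their part in the histone values was not tested.

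The other marker lists ran both ways, where 41.8% of all genes were lower. Of 11 natural killer and cytotoxic genes 9 were lower, with a median difference of -0.37, or -0.33 without mTORi-HDL 1. Of 9 B and plasma cell genes 7 were lower, with a median of -0.29, or -0.41 without that array. Of 9 dendritic cell genes 6 were higher, with a median of 0.18 that became 0.44, and differences ran from -1.11 for Itgae to 1.65 for Batf3. Of 12 fibroblast and mural genes 9 were higher, with a median of 0.50, or 0.42, and a range from -1.97 to 2.22. Of 10 neutrophil genes 7 were higher, with a median of 0.34 that turned to -0.02 without mTORi-HDL 1. Of 10 cardiomyocyte genes 9 and of 8 endothelial genes 7 were higher, with medians of 0.38 and 0.17 that shrank to 0.23 and 0.11.

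**Figure D4:**
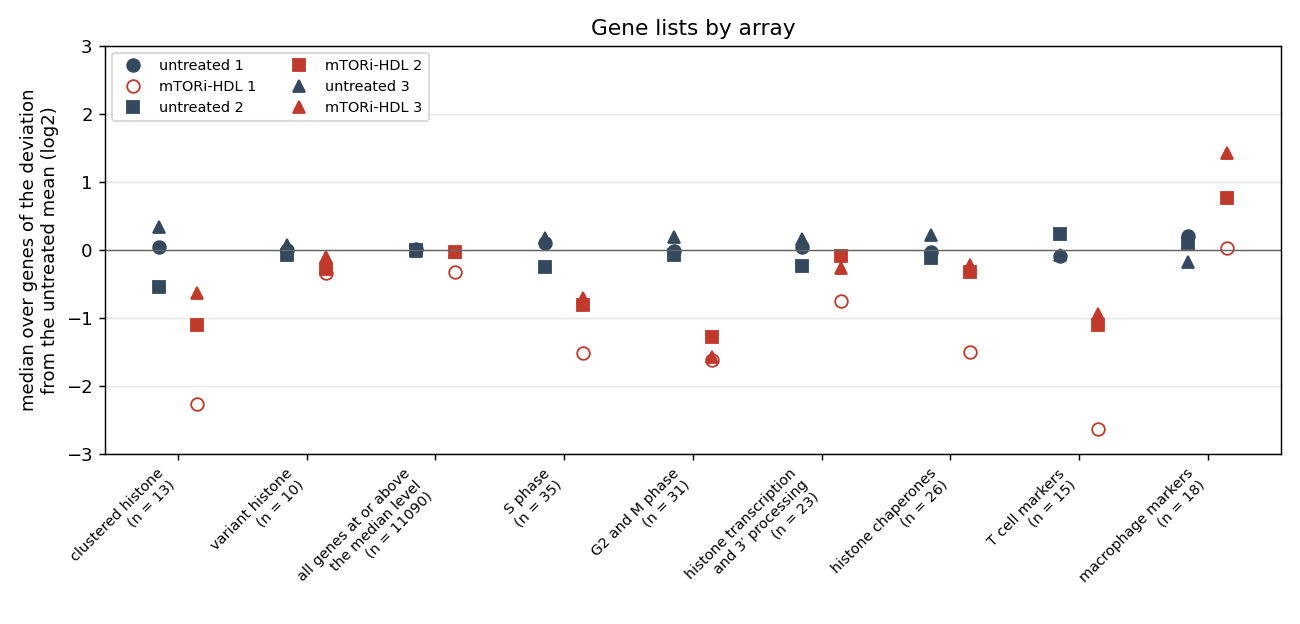
Median over the genes of each list of the log2 deviation from that gene's mean in the 3 untreated arrays, by array. The clustered and variant histone genes shown are those at or above the median level. The treated arrays of these clustered genes lie at -2.28, -1.10 and -0.63. Those of these variant genes lie between -0.34 and -0.11, and those of the G2 and M phase list between -1.62 and -1.28. The level includes the untreated arrays, so a gene that is high only there can pass. Over all 25 clustered genes the treated arrays lie at -0.69, -0.57 and -0.13. Over all 21 variant genes they lie at 0.56, -0.12 and -0.10.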

How the data were processed

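The deposited table held log2 values of 41345 probe sets on 6 arrays, made by the authors in Affymetrix Expression Console by RMA, per the submitters' processing notes. No source used here gives versions, genome build or probe-set filters. Amplification started from 15 ng of total RNA per the labels. RMA quantile-normalizes arrays, so values are relative to the array as a whole, and arrays have no read depth: their number limits the precision.

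Platform annotation gave 1 symbol to 23521 probe sets, several to 1814 and none to 16010. The probe set with the highest mean stood for each of 22180 genes, with no filter and no pseudocount. Groups of 3 entered a fit in limma 3.58.1, under R 4.3.3 (lmFit, eBayes, 4 residual degrees of freedom, two-sided, Benjamini-Hochberg over all genes). The fit was tested on simulated data with large shifts, a spread capped at the median one and no array apart. That setting was easier than these data, so it does not show which differences could be called here. Promoter windows and neighbours came from RefSeq tables of GRCm38.p6, and no coordinates of probes were used.

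The members and the 14 gene lists were chosen with earlier results of these data known. Named genes were, per class, the 12 members with the largest absolute difference at or above the median level. The member of each histone type with the highest mean signal was named in each class as well. A panel of 11 genes was added where measured singly, which left out H1f0, H1f4, H3f3a and H3f3b. Up to 4 genes per list with the smallest p were also named, plus a few set by name. H1f3, H2bc9, H4c1, H2ac12 and H2ap were named after their values were seen. The gene lists held the measured members of S phase, G2 and M phase, histone gene transcription and 3′ processing, histone chaperones, variant histones outside the name rule, and macrophage, T cell, natural killer, B cell, dendritic, neutrophil, fibroblast, cardiomyocyte and endothelial markers. Alternatives were each array left out, median centring, quantile normalization, cyclic loess, averaged probe sets, filters at the median level and the 25th percentile, the replicate block, trend and robust, array weights, means, and other class limits.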

Additional observations from a re-analysis of the deposited data

How the results depend on the processing

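The clustered median of -0.3156 ranged from -0.5787 to -0.2312 with 1 array left out, and was -1.538 with only genes at or above the median level, -1.089 with those at or above the 25th percentile and -0.8746 as a mean. The variant median of 0.2106 ranged from -0.0448 to 0.3103 with 1 array left out and was -0.5424 over H1f10, H2ax, H2az1, H2az2 and H2aj alone. The clustered minus variant median of -0.5261 ranged from -0.889 to -0.2757 with 1 array left out, and was -1.479 and -1.289 under the filters at the median and the 25th percentile. Without mTORi-HDL 1 and with genes at or above the median level alone, a setting chosen after seeing the data, it was -0.5906. Clustered genes with all treated arrays below numbered 7, 7 to 10 with 1 array left out, 6 with quantile normalization and with genes at or above the median level, and 5 with cyclic loess. The variant count of 3 became 0 with quantile normalization and 1 with cyclic loess, and ran from 3 to 5 with 1 array left out. The cause was not tested. With fewer arrays to compare, both counts could only stay or rise when an array was left out. Over all genes the share was 5.53%, and 12.5% without mTORi-HDL 1. Genes past adjusted p 0.05 numbered 0 in limma, 0 in each fit with 1 array left out and 0 over all probe sets. The fit over all probe sets was added after the data were seen. With array weights 1 gene passed, H2bc12, whose difference was known when the family was proposed. The weight of mTORi-HDL 1 in that fit was 0.149. With the replicate block 0 genes passed. Same-numbered arrays deviated together at r = 0.136, 0.135 and -0.024, and differently numbered ones at r = -0.163 to 0.126. All are small, and whether the numbers pair the samples cannot be told from them. The block leaves the differences as they are and changed no other call. Of the 24 named members, 17 kept their sign in all 11 settings tried for single genes. The other 7 were H2ac15, H2ac20, H2bc3, H2aw, H2ab2, H1f8 and H1f10, each near 0 in at least one setting or resting on 1 array. Some of the 11 settings could hardly change a sign. The replicate block left every difference as it was, and averaged probe sets changed only H2ac21, H4f16 and H2ab1. Median centring moved every difference by the same -0.07. The scalings moved the median of all genes by -0.07, -0.04 and -0.07 (median centring, quantile normalization, cyclic loess). With 3 arrays per group, and 1 of them apart, the number of arrays limits the precision.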
